A study of Mus musculus with 8 samples.

Results

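Histone-modifying enzymes add or remove the acetyl and methyl groups that mark chromatin. Here 55 genes of such enzyme families, outside the Polycomb group, were followed in mouse embryonic stem cells lacking a Polycomb component. They were read by 88 of 22626 probe sets and make up 55 of 12393 genes measured. The members were chosen by name, as every probe set with 1 gene symbol of the Kdm, Kmt, Setd, Hdac, Ehmt, Suv39h, Smyd, Prmt, Nsd, Kat or Sirt families. The Polycomb-associated Kdm2b was left out. Earlier results of these data were known when this choice was made. By symbol the genes fell into 5 lysine acetyltransferases, 8 zinc-dependent deacetylases, 5 sirtuins, 3 H3K9 methyltransferases, 16 other SET-domain methyltransferases, 6 arginine methyltransferases and 12 lysine demethylases. A family name does not mean that each member acts on histones, and some are known for other substrates. Genome-wide messenger RNA was measured on Affymetrix expression arrays in Ezh2-/-, Eed-/- and Jarid2-/- cells and in wild type cells, each group on 2 arrays. The labels give the strain of all 4 groups as cj7, a mouse embryonic stem cell line used for gene targeting. All groups were untreated and grew in the same medium with fetal calf serum and leukemia inhibitory factor, a factor that holds such cells in the undifferentiated state. The labels do not say how the alleles were made, whether a line was 1 clone, whether feeder cells were present, or whether a group's arrays stem from different cultures. Each p therefore measures only the spread between these arrays, which may be technical, and the missing subunit and other differences between lines cannot be told apart.

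Acetyltransferases (Kat) place acetyl groups on histone lysines, and the zinc-dependent deacetylases (Hdac) and the NAD-dependent sirtuins (Sirt) take them off. Methyltransferases with a SET domain and the arginine methyltransferases (Prmt) place methyl groups, and the Kdm enzymes remove them from lysines. Polycomb repressive complex 2 (PRC2), of which EZH2 is a catalytic subunit, EED a core subunit and JARID2 an accessory subunit, methylates histone H3 on a lysine that KDM6A demethylates. Methylation of H3K4 by the KMT2 family marks active promoters and enhancers, and acetylation of the lysine that PRC2 methylates blocks its methylation. In embryonic stem cells LSD1 (Kdm1a), G9a (Ehmt2) and SETDB1 are known for silencing lineage genes and retroelements.

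Median signal per array was 322.9 to 351.5. The bacterial negative controls read 23.76 to 147.91. The arrays of a group correlated over all probe sets, which are not independent of each other, with Pearson's r of 0.9938 to 0.9975. Ezh2 was lower in Ezh2-/- (log2 -2.76 with adjusted p = 2.57e-07) and Eed in Eed-/- (log2 -1.50 with adjusted p = 9.57e-06). Ezh2 was also lower in the arrays labelled Jarid2-/-, with 2926 and 3121 against 4599 and 4997 in wild type (log2 -0.66 with adjusted p = 0.00146). Jarid2 was not lower in the arrays labelled Jarid2-/- at any of 3 probe sets. The brightest stood at log2 0.25 with adjusted p = 0.0517, the next was called higher (log2 0.23 with adjusted p = 0.0384) and the dimmest stood at log2 0.18 with adjusted p = 0.247. Which part was deleted is not stated in the labels, so this signal does not test the label, and these arrays are called by their label throughout. All 12 embryonic stem cell markers measured read above the negative controls in every group. Of these 6 were called higher and 1 lower in Ezh2-/-, 2 higher in Eed-/-, and 4 higher and 1 lower in the arrays labelled Jarid2-/-. The lower one was Zfp42, a pluripotency marker also called Rex1, with 3714 and 3989 in Ezh2-/-, 17259.9 and 18659.9 in Eed-/-, 3726 and 3283 on the arrays labelled Jarid2-/- and 18004 and 18757 in wild type (log2 -2.25 with adjusted p = 2.39e-07 in Ezh2-/- and log2 -2.39 with adjusted p = 4.77e-07 in the arrays labelled Jarid2-/-). Of 16 fibroblast markers Ezh2-/- had 10 called lower than wild type, Eed-/- had 4 and the arrays labelled Jarid2-/- had 9. Their summed signal was 4825 to 6032 in Ezh2-/-, 9609 to 14935 in Eed-/-, 5371 to 5632 in the arrays labelled Jarid2-/- and 15173 to 20989 in wild type, and 10, 7, 10 and 6 of them read within or below the controls in those groups. Keratin and trophectoderm markers summed to 3407 to 4430, 11603 to 23420, 6047 to 7598 and 20616 to 28008 in the same order of groups over 7 genes, with 2, 1, 2 and 1 at or below the controls. Endoderm markers summed to 1360 to 1460, 1193 to 1296, 761 to 958 and 797 to 839 over 6 genes, with 3, 1, 4 and 4 at or below the controls. Sox7 alone read 633 and 678 in Ezh2-/-, 348 and 289 in Eed-/-, 152 and 78.5 on the arrays labelled Jarid2-/- and 50.6 and 42.8 in wild type, and without it the other 5 endoderm genes summed to 727 to 782, 904 to 947, 682 to 805 and 755 to 788. In wild type Tagln, Ccn2 and Acta2 were the brightest fibroblast genes, with means of 4956, 4669 and 3419. Col6a1, Dcn, Lox, Lum, Postn and Thy1 were not called in any mutant. Krt8 and Krt18 were the brightest of the 7 keratin and trophectoderm genes, at 10021 and 6544 in wild type. Cdx2 and Elf5 were not called. In Ezh2-/- 4 of these 7 were called lower, in the arrays labelled Jarid2-/- 3. In Eed-/- Krt7 was called higher and Krt19 lower (log2 1.65 and -1.87). The part of these cell types in any result below was not tested. In such bulk samples fewer cells of a type and less RNA per cell cannot be told apart.

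Values below are deposited signal intensities per array on a linear scale, and differences are log2 differences of the signal plus 16 at the brightest probe set of a gene, with the standard error (SE) of the limma fit. A gene was called higher or lower at an adjusted p under 0.05, two-sided, adjusted over all probe sets. Kmt2c, which encodes the enhancer methyltransferase MLL3, was the 1 enzyme gene of 55 called higher in all 3 mutants. Of all genes measured 1.78% were, a like share. Prmt7, an arginine methyltransferase, was lower in Ezh2-/- and in Eed-/-, and Kdm1a, the lysine demethylase LSD1, was lower in Ezh2-/-. The calls of these 3 genes against wild type held under each of the 9 planned processing alternatives, 1 added alternative and the 8 fits that left out an array. So did those of Kmt2e and Ehmt2 in Ezh2-/- and of Kat6b and Kdm3a in the arrays labelled Jarid2-/-, given below. In Ezh2-/- 7 enzyme genes were higher and 13 lower, 20 of 55, where 27.6% of all genes were called (9.67% higher, 17.9% lower). In Eed-/- 3 were higher and 5 lower (18.9% of all genes called, 7.88% higher and 11.1% lower), and in the arrays labelled Jarid2-/- 4 were higher and 5 lower (20.2% called, 5.99% higher and 14.2% lower). The median log2 difference over the enzyme genes was -0.07, -0.03 and -0.04 in the order Ezh2-/-, Eed-/- and the arrays labelled Jarid2-/-, against -0.08, -0.06 and -0.08 over all genes. In at least 1 mutant 24 of 55 enzyme genes were called, against 40.8% of all genes. With a difference of 1.5-fold or more, 10 of 55 enzyme genes were called in at least 1 mutant, against 18.2% of all genes. The 10 include Kdm7a, which read within the negative controls. The share of enzyme genes called was thus above the background in Ezh2-/- and below it for both other mutants. None of these gaps was tested, and the Ezh2-/- gap depended on settings given next. Over probe sets, the gaps of Ezh2-/- and of the arrays labelled Jarid2-/- each reversed when 1 wild type array was left out. The differences were small, none beyond 2.29-fold at a brightest probe set.

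Counted over probe sets, 9 were higher and 19 lower of 88 in Ezh2-/- (26.6% of all probe sets called, 9.41% higher and 17.2% lower), 3 and 8 in Eed-/- (18.6%, with 7.7% higher and 10.9% lower) and 6 and 6 in the arrays labelled Jarid2-/- (19.8%, with 6.08% higher and 13.7% lower). The balance of directions in Ezh2-/- depended on scaling, since 32.1% of the called probe sets were higher as deposited, 50% once quantile normalized, 56% when array medians were made equal and 54.5% when chromosome medians were. The median of all probe sets in Ezh2-/- was -0.0687 as deposited against 0.0202 with quantile normalization and 0.0165 with equal medians. The counts also depended on single arrays. In Ezh2-/- the 19 lower became 7 without Ezh2-/- replicate 1, 9 without Ezh2-/- replicate 2 and 11 without wild type replicate 2, and the 9 higher became 4, 3 and 4. The calls over all probe sets fell as well, so that 12.5% of members and 12.5% of all probe sets were called without Ezh2-/- replicate 1, 13.6% and 11.7% without Ezh2-/- replicate 2, and 17% and 17.9% without wild type replicate 2, against 31.8% and 26.6% with all arrays. With equal chromosome medians they were 25% and 24%. In Eed-/- the 8 lower became 2 without either Eed-/- array and 3 without wild type replicate 2, and the 3 higher became 1 without either Eed-/- array and 2 without either Ezh2-/- array. All probe sets called in Eed-/- fell to 9.54% without Eed-/- replicate 1, 7.96% without replicate 2 and 11.4% without wild type replicate 2, against 18.6% with all arrays. In the arrays labelled Jarid2-/- the 6 lower became 4 without Jarid2-/- replicate 2 and 11 without wild type replicate 1, and the 6 higher became 4 without either Ezh2-/- array or either Jarid2-/- array. There 12.1% of all probe sets were called without Jarid2-/- replicate 2 and 14.6% without wild type replicate 1, against 19.8% with all arrays. Highest group means at or below the highest negative control were read for 8 of the 88 probe sets, among them the brightest of Hdac9, Kdm5d, Kdm7a and Nsd1.

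**Figure D1:**
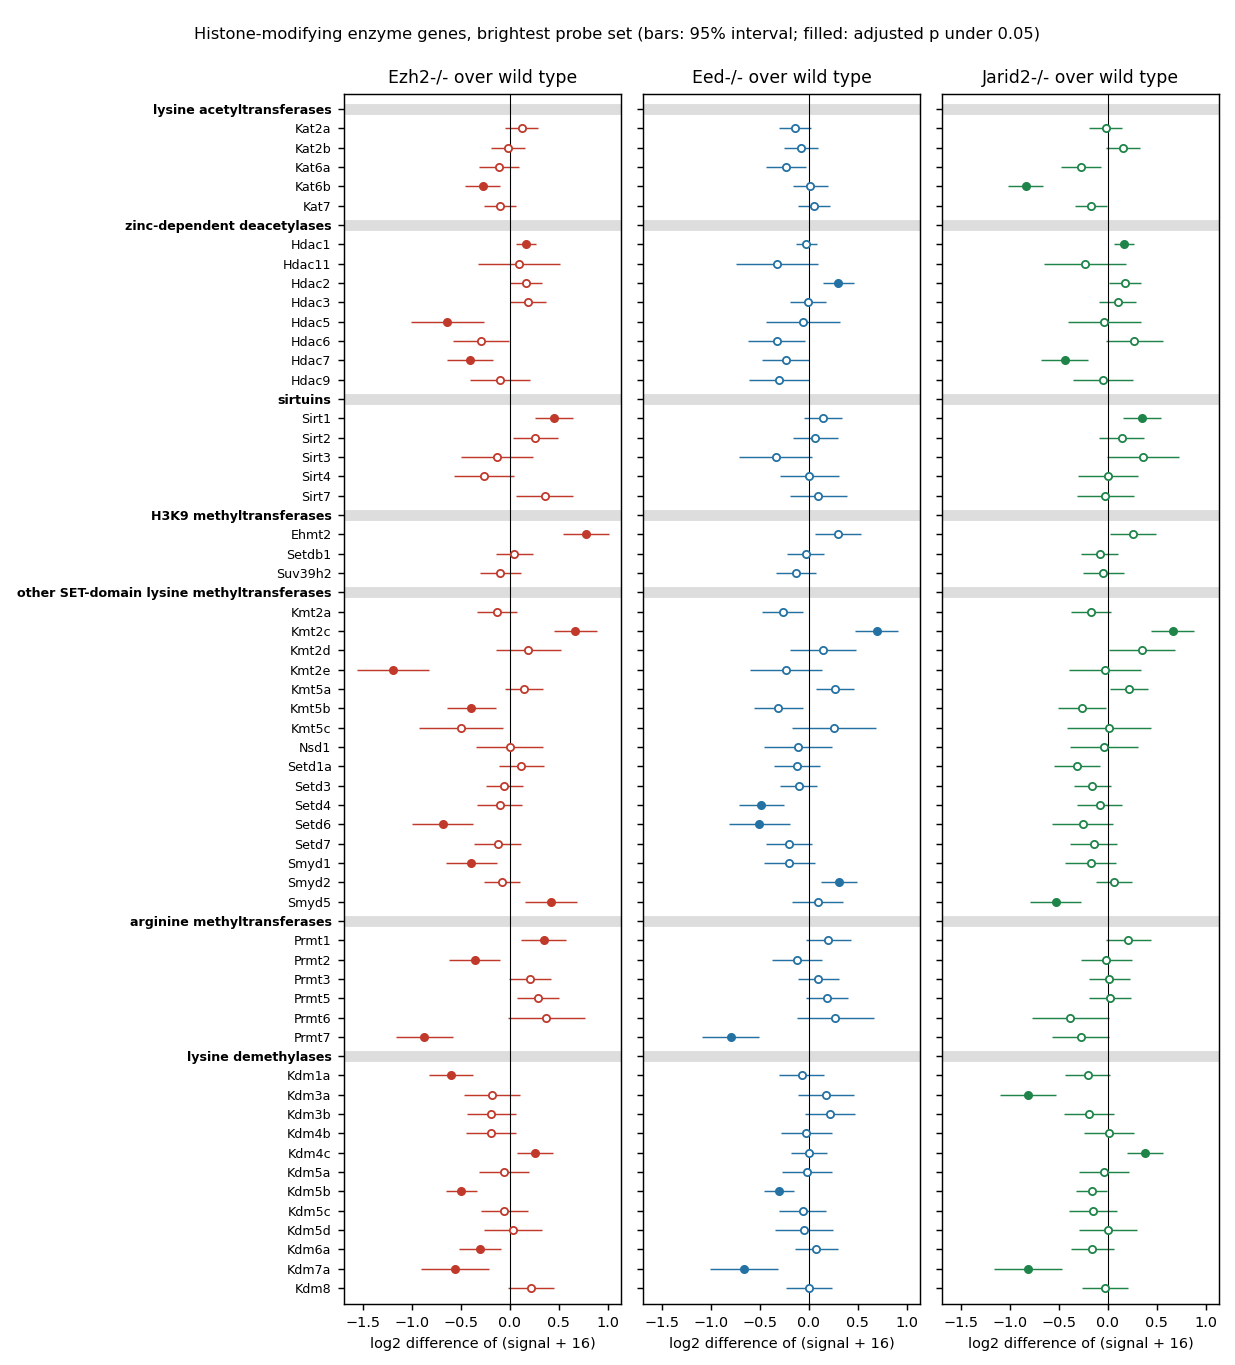
Log2 difference of (signal + 16) between each mutant and wild type for the 55 enzyme genes at their brightest probe set, grouped by enzyme class (points, with 95% interval of the fit; filled where the adjusted p was under 0.05). Kmt2c is the gene filled to the right in all 3 panels, and Kmt2e in Ezh2-/- has the lowest value, log2 -1.19.

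**Figure D2:**
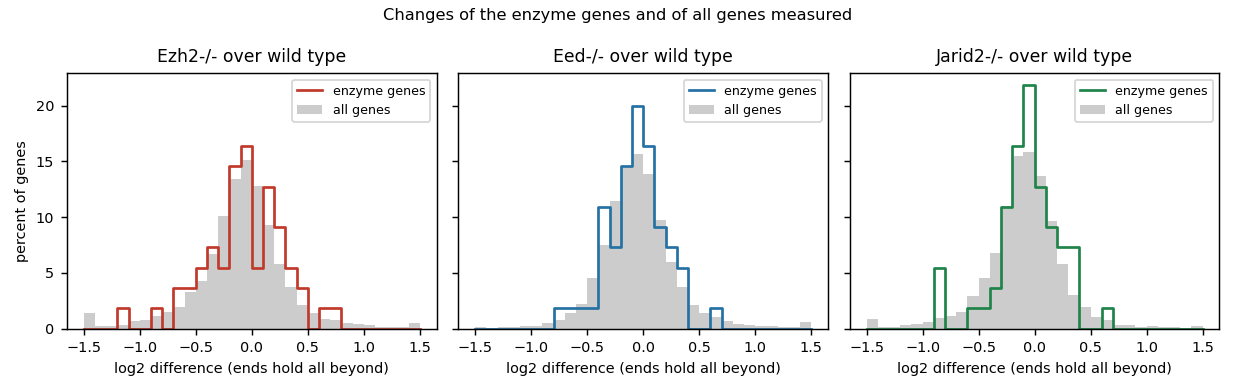
Percent of enzyme genes (coloured line, 55 genes) and of all genes measured (grey bars, 12393 genes) by log2 difference from wild type, in steps of 0.1, with all values beyond 1.5 in the end bars. The enzyme genes reach from log2 -1.19 to 0.78 in Ezh2-/-, short of both end bars.

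The start regions of Kmt2c, Prmt7 and Kdm1a are shown because their calls against wild type held in every alternative run, they read above the controls and RefSeq lists 1 start for each. Each covers the 250 bases before and the 50 after the start in the assembly GRCm38.p6, written 5′ to 3′ with CG dinucleotides in capitals.
Kmt2c, chr5:25498734-25499033, minus strand: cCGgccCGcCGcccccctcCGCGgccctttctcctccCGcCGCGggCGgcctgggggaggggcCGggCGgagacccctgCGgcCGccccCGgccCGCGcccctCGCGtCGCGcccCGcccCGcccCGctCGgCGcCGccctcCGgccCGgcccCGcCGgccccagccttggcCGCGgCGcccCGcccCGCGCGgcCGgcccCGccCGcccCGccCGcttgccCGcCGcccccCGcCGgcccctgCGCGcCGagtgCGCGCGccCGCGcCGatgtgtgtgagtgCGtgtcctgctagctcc
Prmt7, chr8:106210804-106211103, plus strand: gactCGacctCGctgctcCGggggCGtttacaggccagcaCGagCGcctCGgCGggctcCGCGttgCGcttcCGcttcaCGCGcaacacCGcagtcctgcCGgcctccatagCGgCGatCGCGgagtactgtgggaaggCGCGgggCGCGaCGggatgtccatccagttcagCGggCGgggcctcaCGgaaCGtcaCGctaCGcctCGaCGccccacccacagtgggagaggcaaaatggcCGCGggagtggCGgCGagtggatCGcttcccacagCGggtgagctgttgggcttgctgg
Kdm1a, chr4:136602674-136602973, minus strand: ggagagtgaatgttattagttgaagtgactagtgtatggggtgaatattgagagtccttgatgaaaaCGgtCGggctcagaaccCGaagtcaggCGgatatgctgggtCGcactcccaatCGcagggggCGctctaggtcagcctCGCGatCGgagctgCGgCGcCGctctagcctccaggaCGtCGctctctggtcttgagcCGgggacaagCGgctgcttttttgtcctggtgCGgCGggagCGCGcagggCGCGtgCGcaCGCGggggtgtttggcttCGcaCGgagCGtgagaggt
Kmt2c held 56 CG dinucleotides, and 0.195% of the 32851 RefSeq promoters held as many. Prmt7 held 39 (4.45% of promoters) and Kdm1a 29 (12.9%), against a median of 7 over all promoters and 21.5 over the 62 promoters matched to 47 of the 55 enzyme genes. The letters GGGCGG, searched on both strands, occurred 10 times in the Kmt2c window and 1 time in that of Prmt7, and CCAAT 1 time in that of Kdm1a. Over the enzyme promoters 62.9% held GGGCGG, 40.3% CCAAT, 6.45% TATAAA and 12.9% CACGTG, against 35.7%, 37.4%, 13.6% and 7.15% of all promoters of that length. All promoters here are those of 27025 RefSeq genes, not only of the genes measured or expressed in these cells. These matches describe letters and not binding. Start regions of the same gene can overlap, as for Kat6b and Setd3, and each was counted, so the 62 are not independent.

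Among the 5 acetyltransferases 1, Kat6b, was called in at least 1 mutant, against 40.8% of all genes. It encodes MORF, a histone H3 acetyltransferase related to MOZ (Kat6a), and read 3973 and 3895 in Ezh2-/-, 4611 and 5054 in Eed-/-, 2766 and 2559 on the arrays labelled Jarid2-/- and 4564 and 4980.01 in wild type. Both arrays labelled Jarid2-/- were below all the others, and the Eed-/- and wild type arrays overlapped. Kat6b was 1.79-fold lower in the arrays labelled Jarid2-/- than in wild type (log2 -0.84, SE 0.08 with adjusted p = 0.000264), a call that held in every alternative. It was lower in Ezh2-/- by less (log2 -0.28 with adjusted p = 0.0313), a call that was lost without either Ezh2-/- array or wild type replicate 2 (log2 -0.29 to -0.21) and with quantile normalization, equal array medians, no intensity trend or equal chromosome medians (log2 -0.28 to -0.19). The differences of the arrays labelled Jarid2-/- from Eed-/- (log2 -0.86 with adjusted p = 0.000205) and from Ezh2-/- (log2 -0.56 with adjusted p = 0.0019) were called themselves and held as well.

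Kat2a, GCN5 of the SAGA coactivator complex, read 4513 and 4694 in Ezh2-/-, 4022 and 3651 in Eed-/-, 4115 and 4210.3 on the arrays labelled Jarid2-/- and 4390.2 and 4067 in wild type. Its paralog Kat2b (PCAF) read 2492 and 2653 in Ezh2-/-, 2432 and 2487 in Eed-/-, 2954 and 2839.7 on the arrays labelled Jarid2-/- and 2652 and 2546 in wild type. The differences from wild type were not called in any mutant for either gene. For Kat2a they were log2 0.12, 95% interval -0.04 to 0.29 in Ezh2-/-, log2 -0.14, 95% interval -0.31 to 0.03 in Eed-/- and log2 -0.02, 95% interval -0.19 to 0.15 in the arrays labelled Jarid2-/-. For Kat2b they were log2 -0.02, 95% interval -0.19 to 0.16, log2 -0.08, 95% interval -0.25 to 0.09 and log2 0.16, 95% interval -0.02 to 0.33 in the same order. Between mutants Kat2a was called higher in Ezh2-/- than in Eed-/- (log2 0.26 with adjusted p = 0.0407), which was lost without either Ezh2-/- array or Eed-/- replicate 2 (log2 0.19 to 0.29) and with no intensity trend or the mean over its probe sets (log2 0.18 to 0.26). Kat6a (MOZ) and Kat7 (HBO1), catalytic subunits of complexes with ING proteins, stood at -0.28 to 0.05 over the 3 mutants and were not called.

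Of the zinc-dependent deacetylases, 4 of 8 were called in at least 1 mutant, against 40.8% of all genes. Hdac1 and Hdac2 are the paralogous catalytic subunits of the SIN3, NuRD and CoREST complexes. Hdac1 read 9981 and 10241 in Ezh2-/-, 8805 and 8868 in Eed-/-, 10099 and 10080.1 on the arrays labelled Jarid2-/- and 9219 and 8749 in wild type. The Ezh2-/- arrays and the arrays labelled Jarid2-/- lay above the rest by a small margin, 1.13-fold in Ezh2-/- (log2 0.17, SE 0.05 with adjusted p = 0.0237) and 1.12-fold in the arrays labelled Jarid2-/- (log2 0.17, SE 0.05 with adjusted p = 0.032). The first call was lost without either Ezh2-/- array or wild type replicate 2 (log2 0.13 to 0.19) and with no intensity trend (log2 0.17), and the second without either Ezh2-/- array, either Jarid2-/- array or wild type replicate 2 (log2 0.13 to 0.17) and with no intensity trend, a fit of the 2 groups alone or equal chromosome medians (log2 0.10 to 0.17). Hdac2 read 4131 and 4383 in Ezh2-/-, 4678 and 4658 in Eed-/-, 4103 and 4431 on the arrays labelled Jarid2-/- and 3915 and 3647 in wild type, highest in Eed-/-, where it was 1.23-fold higher than in wild type (log2 0.30, SE 0.07 with adjusted p = 0.0205). That call was lost without either Eed-/- array or wild type replicate 2 (log2 0.25 to 0.31) and with a fit of the 2 groups alone or equal chromosome medians (log2 0.19 to 0.30). In Ezh2-/- Hdac2 stood at log2 0.17, 95% interval 0.01 to 0.33 and in the arrays labelled Jarid2-/- at log2 0.17, 95% interval 0.01 to 0.34, neither called. Hdac3, the catalytic subunit of the NCoR and SMRT corepressors, was not called, with -0.01 to 0.19 over the 3 mutants.

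The class IIa deacetylases shuttle between nucleus and cytoplasm and bind MEF2 factors. Of these Hdac5 read 480.3 and 465 in Ezh2-/-, 708 and 717 in Eed-/-, 657 and 797 on the arrays labelled Jarid2-/- and 616 and 894 in wild type. The Ezh2-/- arrays were below all the others, and the wild type arrays stood far apart. Hdac5 was 1.55-fold lower in Ezh2-/- (log2 -0.63, SE 0.17 with adjusted p = 0.0213), which was lost without either Ezh2-/- array or wild type replicate 2 (log2 -0.66 to -0.37) and with equal chromosome medians (log2 -0.47). Hdac7, named after its values were seen, read 498 and 449.6 in Ezh2-/-, 516 and 555 in Eed-/-, 487 and 436 on the arrays labelled Jarid2-/- and 615 and 649 in wild type. It was called lower in Ezh2-/- (log2 -0.41 with adjusted p = 0.0213) and in the arrays labelled Jarid2-/- (log2 -0.44 with adjusted p = 0.0194), with Eed-/- between these and wild type (log2 -0.23 with adjusted p = 0.156). The Ezh2-/- call was lost without either Ezh2-/- array or wild type replicate 2 (log2 -0.48 to -0.33) and with equal array medians or equal chromosome medians (log2 -0.35 to -0.32), and the other without Jarid2-/- replicate 2 or wild type replicate 2 (log2 -0.40 to -0.36) and with a fit of the 2 groups alone (log2 -0.44). At its dimmer probe set Hdac7 had the same sign and was not called in either. Hdac9 read within the negative controls on all 8 arrays.

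Hdac6, an X-linked cytoplasmic deacetylase of tubulin, read 1716 and 1656 in Ezh2-/-, 1659 and 1633 in Eed-/-, 2327 and 2689 on the arrays labelled Jarid2-/- and 1812 and 2362 in wild type. The wild type arrays stood apart from each other, and no mutant was called against them (log2 -0.29, 95% interval -0.58 to 0 in Ezh2-/-, log2 -0.33, 95% interval -0.62 to -0.04 in Eed-/- and log2 0.27, 95% interval -0.02 to 0.56 in the arrays labelled Jarid2-/-). Both arrays labelled Jarid2-/- lay above both of Eed-/- and of Ezh2-/- (log2 0.60 with adjusted p = 0.0142 and log2 0.56 with adjusted p = 0.0186). The difference from Eed-/- was lost without either Eed-/- array or Jarid2-/- replicate 2 (log2 0.49 to 0.61), and that from Ezh2-/- without either Ezh2-/- array or Jarid2-/- replicate 2 (log2 0.46 to 0.59) and with equal chromosome medians (log2 0.34). Hdac11, on chromosome 6, read 278 and 281 in Ezh2-/-, 193 and 215 in Eed-/-, 195 and 246 on the arrays labelled Jarid2-/- and 208 and 324 in wild type and was not called in any mutant, with -0.33 to 0.10.

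Of the 5 sirtuins 1, Sirt1, was called in at least 1 mutant, against 40.8% of all genes. It encodes a nuclear NAD-dependent deacetylase and read 4204 and 4477 in Ezh2-/-, 3522 and 3475 in Eed-/-, 4144 and 3933 on the arrays labelled Jarid2-/- and 3418 and 2925 in wild type. Both Ezh2-/- arrays and both arrays labelled Jarid2-/- were above those of Eed-/- and wild type. Sirt1 was 1.37-fold higher in Ezh2-/- (log2 0.45, SE 0.09 with adjusted p = 0.00515) and 1.27-fold higher in the arrays labelled Jarid2-/- (log2 0.35, SE 0.09 with adjusted p = 0.0215), while in Eed-/- it stood at log2 0.15, 95% interval -0.05 to 0.34. The Ezh2-/- call was lost without Ezh2-/- replicate 2 (log2 0.41), and the other without either Jarid2-/- array or wild type replicate 2 (log2 0.24 to 0.39) and with a fit of the 2 groups alone or equal chromosome medians (log2 0.27 to 0.35). The difference between Ezh2-/- and Eed-/- was called (log2 0.31 with adjusted p = 0.0394) and was lost without either Ezh2-/- array or either Eed-/- array (log2 0.26 to 0.35) and with no intensity trend (log2 0.31).

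Sirt3, a mitochondrial deacetylase, read 805 and 812 in Ezh2-/-, 708 and 687 in Eed-/-, 1037 and 1254 on the arrays labelled Jarid2-/- and 737 and 1064 in wild type. Its wild type arrays stood apart, and no mutant was called against them, with log2 -0.34 for Eed-/- and 0.36 for the arrays labelled Jarid2-/-. The arrays labelled Jarid2-/- differed from Eed-/- (log2 0.70 with adjusted p = 0.0214), which was lost without either Eed-/- array or Jarid2-/- replicate 2 (log2 0.56 to 0.72). Sirt2 of the cytoplasm, Sirt4 of the mitochondrion and Sirt7 of the nucleolus stood at -0.26 to 0.36 and were not called.

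The H3K9 methyltransferases were read by Ehmt2, Setdb1 and Suv39h2, while Ehmt1 and Suv39h1 were not analysed here. Ehmt2 encodes G9a, which methylates H3K9 in euchromatin. Its signal was 3621 and 3779.7 in Ezh2-/-, 2714 and 2592 in Eed-/-, 2866 and 2311 on the arrays labelled Jarid2-/- and 2144 and 2155 in wild type. All 6 mutant arrays were above both wild type arrays, with Ezh2-/- highest. Ehmt2 was 1.72-fold higher in Ezh2-/- (log2 0.78, SE 0.10 with adjusted p = 0.000869), and this call held in every alternative, at 0.48 when its 2 probe sets were averaged. It was not called in Eed-/- (log2 0.30, 95% interval 0.07 to 0.53, adjusted p = 0.0723) or in the arrays labelled Jarid2-/- (log2 0.26, 95% interval 0.02 to 0.49, adjusted p = 0.111). The differences of Ezh2-/- from Eed-/- (log2 0.48 with adjusted p = 0.0133) and of the arrays labelled Jarid2-/- from Ezh2-/- (log2 -0.52 with adjusted p = 0.0101) were called. The first was lost without either Ezh2-/- array or Eed-/- replicate 2 (log2 0.44 to 0.51), and the second without either Ezh2-/- array or Jarid2-/- replicate 2 (log2 -0.55 to -0.37) and with the mean over its probe sets (log2 -0.30). The second Ehmt2 probe set was dim (199 and 260.2 in Ezh2-/-, 199 and 178 in Eed-/-, 218 and 212 on the arrays labelled Jarid2-/- and 193 and 204 in wild type) and was not called.

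Setdb1, which trimethylates H3K9 at retroelements, read 2039 and 2074 in Ezh2-/-, 1986 and 1904 in Eed-/-, 1892 and 1860.2 on the arrays labelled Jarid2-/- and 2077 and 1901 in wild type. Ezh2-/- and Eed-/- overlapped wild type, and the arrays labelled Jarid2-/- lay just below it. Its differences were log2 0.05, 95% interval -0.14 to 0.24 in Ezh2-/-, log2 -0.03, 95% interval -0.22 to 0.16 in Eed-/- and log2 -0.08, 95% interval -0.27 to 0.11 in the arrays labelled Jarid2-/-. Suv39h2, a heterochromatin methyltransferase, read 865 and 832 in Ezh2-/-, 831 and 825 in Eed-/-, 904 and 853 on the arrays labelled Jarid2-/- and 904 and 908 in wild type, with log2 -0.09, 95% interval -0.30 to 0.11, log2 -0.13, 95% interval -0.33 to 0.08 and log2 -0.04, 95% interval -0.25 to 0.16 in the same order. Differences of the size seen for Ehmt2 in Ezh2-/- lay outside all of these intervals.

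Among the 16 other SET-domain methyltransferases, 8 were called in at least 1 mutant, against 40.8% of all genes. Kmt2c, whose MLL3 protein monomethylates H3K4 at enhancers, read 989.6 and 1010.2 in Ezh2-/-, 1021 and 1017 in Eed-/-, 1027 and 968 on the arrays labelled Jarid2-/- and 589 and 658 in wild type. The 6 mutant arrays lay within a narrow band above both wild type arrays. Kmt2c was 1.59-fold higher in Ezh2-/- (log2 0.67, SE 0.10 with adjusted p = 0.00139), 1.62-fold higher in Eed-/- (log2 0.70, SE 0.10 with adjusted p = 0.00224) and 1.59-fold higher in the arrays labelled Jarid2-/- (log2 0.67, SE 0.10 with adjusted p = 0.00205). These 3 comparisons share the 2 wild type arrays. Without wild type replicate 1 the values were 0.59, 0.62 and 0.59, and without wild type replicate 2 they were 0.75, 0.77 and 0.74, all called. The median of chromosome 5, where Kmt2c lies, was between 0.002 and 0.039 in the 3 mutants.

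Its paralog Kmt2d (MLL4), like Setd1a below named after its values were seen, was not called, with log2 0.19, 95% interval -0.14 to 0.53, log2 0.15, 95% interval -0.19 to 0.48 and log2 0.35, 95% interval 0.02 to 0.69 in the order Ezh2-/-, Eed-/- and the arrays labelled Jarid2-/-. Kmt2a (MLL1), the fusion gene of mixed-lineage leukemia, and Setd1a, a subunit of the COMPASS complex, were not called against wild type either, at -0.31 to 0.12. Setd1a differed between the arrays labelled Jarid2-/- and Ezh2-/- (log2 -0.44 with adjusted p = 0.0223), which was lost without either Ezh2-/- array or Jarid2-/- replicate 2 (log2 -0.45 to -0.34) and with the mean over its probe sets or equal chromosome medians (log2 -0.34 to -0.27).

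Kmt2e, which encodes MLL5, a divergent member of the family that binds methylated H3K4, moved the other way. Its signal was 375 and 338 in Ezh2-/-, 633 and 793 in Eed-/-, 773 and 865 on the arrays labelled Jarid2-/- and 718 and 973 in wild type. Both Ezh2-/- arrays were well below the 6 others, which overlapped. Kmt2e was 2.29-fold lower in Ezh2-/- than in wild type (log2 -1.19, SE 0.16 with adjusted p = 0.001), the largest difference at a brightest probe set of the enzyme genes. In Eed-/- it stood at log2 -0.23, 95% interval -0.60 to 0.13 and in the arrays labelled Jarid2-/- at log2 -0.03, 95% interval -0.40 to 0.34. The arrays labelled Jarid2-/- read 2.24-fold more than Ezh2-/- (log2 1.16, SE 0.16 with adjusted p = 0.00177), and Ezh2-/- less than Eed-/- (log2 -0.96 with adjusted p = 0.0041). The calls against wild type and against the arrays labelled Jarid2-/- held in every alternative, and the one against Eed-/- was lost without Ezh2-/- replicate 2 (log2 -0.89). The second probe set, with 324 and 319 in Ezh2-/-, 494 and 573 in Eed-/-, 608 and 819.6 on the arrays labelled Jarid2-/- and 594 and 812 in wild type, gave log2 -1.07 with adjusted p = 0.00255 for Ezh2-/- against wild type.

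**Figure D3:**
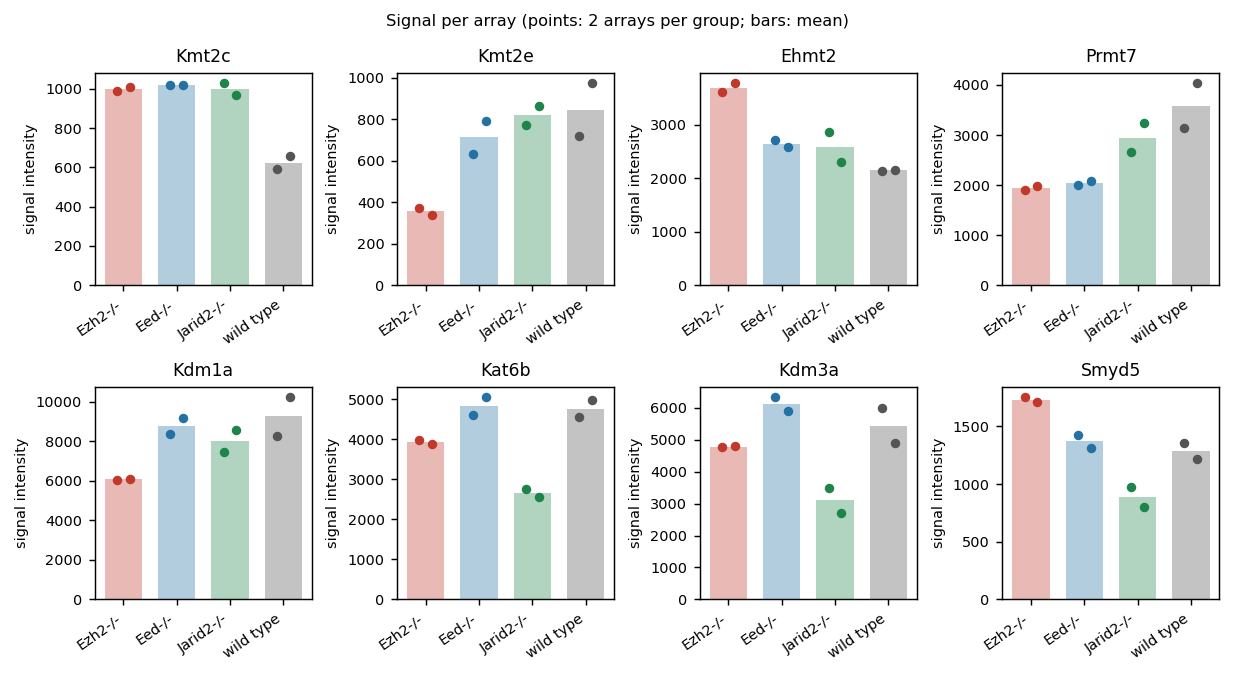
Signal intensity per array (points) and group mean (bars, from 0) for 8 enzyme genes at their brightest probe set, in Ezh2-/-, Eed-/-, Jarid2-/- and wild type arrays, 2 per group. Kmt2c is higher in all 6 mutant arrays, Kmt2e and Kdm1a are lower in Ezh2-/-, Prmt7 is lower in Ezh2-/- and Eed-/-, Kat6b and Kdm3a are lowest in the arrays labelled Jarid2-/-, and Smyd5 is highest in Ezh2-/- and lowest in the arrays labelled Jarid2-/-.

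Setd6, known for methylating a subunit of the transcription factor NF-kB, read 2398 and 2531 in Ezh2-/-, 2705 and 2885 in Eed-/-, 3061 and 3595 on the arrays labelled Jarid2-/- and 3408 and 4625 in wild type. Ezh2-/- and Eed-/- were below both wild type arrays, which stood apart. Setd6 was 1.61-fold lower in Ezh2-/- (log2 -0.68, SE 0.14 with adjusted p = 0.00678), which was lost without Ezh2-/- replicate 1 (log2 -0.65), and lower in Eed-/- (log2 -0.50 with adjusted p = 0.0341), which was lost without either Ezh2-/- array, either Eed-/- array or wild type replicate 2 (log2 -0.55 to -0.28) and with no intensity trend, a fit of the 2 groups alone or equal chromosome medians (log2 -0.51 to -0.22). Setd6 lies on chromosome 8, whose median was below 0 in all 3 mutants, as described further on. Setd4, named after its values were seen, was lower in Eed-/- at all 3 probe sets. At the dimmest the Eed-/- mean was within the negative controls, at least 1.40-fold below wild type (adjusted p = 0.0333). Its brightest read 834 and 784 in Ezh2-/-, 649.96 and 584 in Eed-/-, 856 and 784 on the arrays labelled Jarid2-/- and 867 and 870.1 in wild type (log2 -0.49, SE 0.10 with adjusted p = 0.0127), and this call was lost without Eed-/- replicate 2 (log2 -0.41).

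The H4K20 methyltransferases did not move as a group. Kmt5a, which places the first methyl group, read 3982 and 3724 in Ezh2-/-, 4113 and 4246 in Eed-/-, 4089 and 3969 on the arrays labelled Jarid2-/- and 3756 and 3206 in wild type and was not called, with 0.15, 0.27 and 0.21 in the order Ezh2-/-, Eed-/- and the arrays labelled Jarid2-/-. Kmt5b, which adds the further groups and was named after its values were seen, read 485 and 591 in Ezh2-/-, 559.9 and 576 in Eed-/-, 587 and 587 on the arrays labelled Jarid2-/- and 713 and 702 in wild type. All mutant arrays were below wild type. It was called in Ezh2-/- (log2 -0.39 with adjusted p = 0.0288), and the call was lost without Ezh2-/- replicate 1 or either wild type array (log2 -0.40 to -0.26) and with quantile normalization, equal array medians, a fit of the 2 groups alone or equal chromosome medians (log2 -0.39 to -0.19). A second of its 4 probe sets was called lower in all 3 mutants (-0.33, -0.41 and -0.45). Each of those calls was lost with equal chromosome medians, at -0.12, -0.25 and -0.23, and without wild type replicate 1, at -0.27, -0.35 and -0.38. Kmt5c was not called against wild type (-0.50 to 0.26).

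The SMYD enzymes differed among themselves. Smyd5, known for methylating histone H4 and ribosomal protein, read 1753 and 1710.1 in Ezh2-/-, 1428 and 1315 in Eed-/-, 978 and 799.9 on the arrays labelled Jarid2-/- and 1356 and 1220.4 in wild type. Both Ezh2-/- arrays were above and both arrays labelled Jarid2-/- below all the others. Smyd5 was 1.34-fold higher in Ezh2-/- (log2 0.42, SE 0.12 with adjusted p = 0.0266) and 1.45-fold lower in the arrays labelled Jarid2-/- (log2 -0.53, SE 0.12 with adjusted p = 0.0131). The first call was lost without either Ezh2-/- array or wild type replicate 2 (log2 0.35 to 0.44), and the second without Jarid2-/- replicate 2 or wild type replicate 1 (log2 -0.46 to -0.39) and with a fit of the 2 groups alone or equal chromosome medians (log2 -0.53 to -0.31). The difference between these 2 mutants held in every alternative (1.94-fold lower in the arrays labelled Jarid2-/-, log2 -0.96, SE 0.12 with adjusted p = 0.000894), and the second probe set gave log2 -0.65 with adjusted p = 0.00325 for it.

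Smyd1, known from heart and skeletal muscle, was dim, with 367 and 338 in Ezh2-/-, 396 and 414 in Eed-/-, 454 and 375 on the arrays labelled Jarid2-/- and 446 and 489 in wild type, and was called lower in Ezh2-/- (log2 -0.39 with adjusted p = 0.0353), which was lost without either Ezh2-/- array, either Eed-/- array or wild type replicate 2 (log2 -0.45 to -0.33) and with quantile normalization, equal array medians, the mean over its probe sets or equal chromosome medians (log2 -0.33 to -0.15). Smyd2, which methylates p53 among other proteins and was named after its values were seen, read 1881 and 1797 in Ezh2-/-, 2416 and 2398 in Eed-/-, 1983 and 2066 on the arrays labelled Jarid2-/- and 1886 and 1989.5 in wild type. Both Eed-/- arrays were above all others (log2 0.31 with adjusted p = 0.0288 against wild type), a call that was lost without either Ezh2-/- array, either Eed-/- array or wild type replicate 1 (log2 0.27 to 0.32) and with a fit of the 2 groups alone (log2 0.31). It rose to 0.50 with equal chromosome medians. The remaining Setd3, Setd7 and Nsd1 stood at -0.20 to 0 and were not called, and Nsd1 read within the negative controls.

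Of the 6 arginine methyltransferases, 3 were called in at least 1 mutant, against 40.8% of all genes. Prmt7 encodes an enzyme that monomethylates arginine, and read 1896 and 1982 in Ezh2-/-, 2009.8 and 2074 in Eed-/-, 2663 and 3233 on the arrays labelled Jarid2-/- and 3143 and 4032 in wild type. The Ezh2-/- and Eed-/- arrays formed a tight group below all the others. Prmt7 was 1.83-fold lower in Ezh2-/- (log2 -0.87, SE 0.13 with adjusted p = 0.00157) and 1.74-fold lower in Eed-/- (log2 -0.80, SE 0.13 with adjusted p = 0.00448), and both calls held in every alternative. In the arrays labelled Jarid2-/- it stood at log2 -0.28, 95% interval -0.57 to 0.02 and was not called. The difference of the arrays labelled Jarid2-/- from Eed-/- was log2 0.52 with adjusted p = 0.0276 and from Ezh2-/- log2 0.59 with adjusted p = 0.0156. The first was lost without either Ezh2-/- array, either Eed-/- array or Jarid2-/- replicate 2 (log2 0.38 to 0.54) and with no intensity trend or equal chromosome medians (log2 0.42 to 0.52), and the second without either Ezh2-/- array or Jarid2-/- replicate 2 (log2 0.46 to 0.63). Prmt7 lies on chromosome 8, and with equal chromosome medians its values were -0.67 in Ezh2-/- and -0.51 in Eed-/-. The mean over its 2 probe sets gave -0.58 and -0.53, since the dim one, 202 and 174 in Ezh2-/-, 183 and 205 in Eed-/-, 222 and 195 on the arrays labelled Jarid2-/- and 239 and 229 in wild type, was not called.

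Prmt1, the main enzyme of asymmetric arginine dimethylation, read 11623 and 10097 in Ezh2-/-, 10031 and 9541 in Eed-/-, 10565 and 9206 on the arrays labelled Jarid2-/- and 9356 and 7759 in wild type. The Ezh2-/- and Eed-/- arrays were above both wild type arrays, which those labelled Jarid2-/- overlapped. Prmt1 was called higher in Ezh2-/- (log2 0.35 with adjusted p = 0.0347), which was lost without either Ezh2-/- array, either Eed-/- array or wild type replicate 2 (log2 0.21 to 0.45) and with no intensity trend or equal chromosome medians (log2 0.18 to 0.35). Prmt5, the main enzyme of symmetric dimethylation, read 5274 and 5349 in Ezh2-/-, 5241 and 4669 in Eed-/-, 4716 and 4159 on the arrays labelled Jarid2-/- and 4672 and 4039 in wild type and missed the threshold in Ezh2-/- (log2 0.29, 95% interval 0.07 to 0.50, adjusted p = 0.0515). Prmt2, a weak methyltransferase and nuclear receptor coactivator named after its values were seen, was at the threshold in Ezh2-/- (log2 -0.35 with adjusted p = 0.0495), with 849 and 993 in Ezh2-/- against 1171 and 1186 in wild type. That call was lost without either Ezh2-/- array, either Eed-/- array or either wild type array (log2 -0.47 to -0.24) and with quantile normalization, equal array medians, no intensity trend, a fit of the 2 groups alone or equal chromosome medians (log2 -0.35 to -0.27). Prmt6, named after its values were seen, was not called against wild type (-0.38 to 0.37). Between mutants it was called lower in the arrays labelled Jarid2-/- than in Ezh2-/- (log2 -0.76 with adjusted p = 0.0201) and than in Eed-/- (log2 -0.65 with adjusted p = 0.0365). Neither call held in every alternative.

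The probe sets of Prmt3, an enzyme known for methylating a ribosomal protein and named after its values were seen, disagreed. The brightest read 4738 and 4576 in Ezh2-/-, 4596 and 4051 in Eed-/-, 4262 and 3895 on the arrays labelled Jarid2-/- and 4327 and 3749.6 in wild type, with Ezh2-/- just above wild type, the other mutants overlapping it and no call (log2 0.21, 95% interval 0 to 0.42, log2 0.10, 95% interval -0.11 to 0.31 and log2 0.02, 95% interval -0.19 to 0.23 in the order Ezh2-/-, Eed-/- and the arrays labelled Jarid2-/-). The dimmest read 256 and 260.2 in Ezh2-/-, 103 and 81.8 in Eed-/-, 395 and 289 on the arrays labelled Jarid2-/- and 119.8 and 78.0 in wild type. There both Ezh2-/- arrays and both arrays labelled Jarid2-/- were above every Eed-/- and wild type array, and the Eed-/- and wild type arrays lay within the negative controls. Against the highest control, the Ezh2-/- signal was at least 1.67-fold higher than wild type (adjusted p = 0.00179) and that of the arrays labelled Jarid2-/- at least 2.18-fold (adjusted p = 0.000785). The measured means were 258 ± 2.69 and 342 ± 74.9, against 98.9 ± 29.6 in wild type (SD, n = 2 each). The third probe set read 413 and 419 in Ezh2-/-, 321 and 284 in Eed-/-, 531 and 428 on the arrays labelled Jarid2-/- and 362 and 316 in wild type, and was called in the arrays labelled Jarid2-/- (log2 0.48 with adjusted p = 0.0295), which was lost without either Ezh2-/- array, Jarid2-/- replicate 1 or wild type replicate 2 (log2 0.33 to 0.48) and with a fit of the 2 groups alone or equal chromosome medians (log2 0.41 to 0.48). The calls at the dimmest probe set held in every alternative. Which transcripts these probe sets read was not analysed here.

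**Figure D4:**
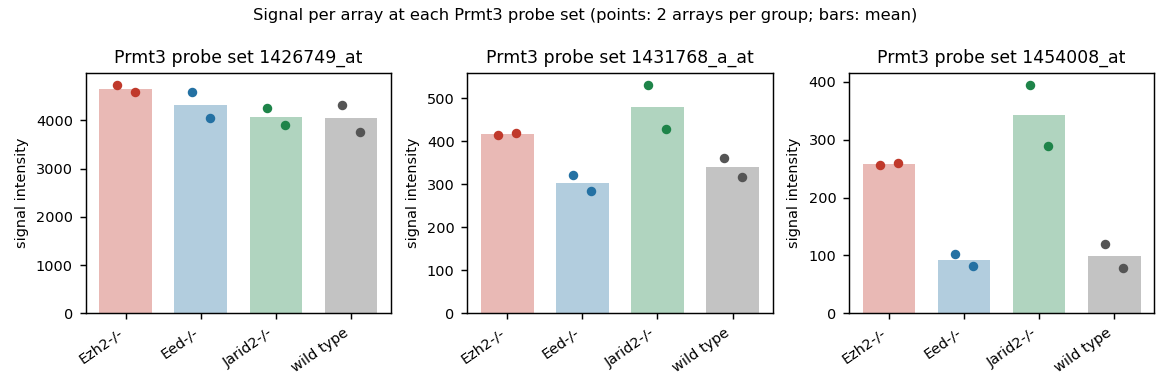
Signal intensity per array (points) and group mean (bars, from 0) at the 3 probe sets of Prmt3, in Ezh2-/-, Eed-/-, Jarid2-/- and wild type arrays, 2 per group. The brightest probe set has no call, while at the dimmest the Ezh2-/- arrays and those labelled Jarid2-/- read 256 to 395 and the Eed-/- and wild type arrays 78.0 to 119.8.

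Among the 12 lysine demethylases, 6 were called in at least 1 mutant, where 40.8% of all genes were. Kdm1a encodes LSD1, which removes methyl groups from H3K4 in the CoREST complex, and read 6023 and 6105 in Ezh2-/-, 8359.9 and 9157 in Eed-/-, 7463 and 8543 on the arrays labelled Jarid2-/- and 8278 and 10219 in wild type. Both Ezh2-/- arrays were below all the others, which overlapped. Kdm1a was 1.51-fold lower in Ezh2-/- (log2 -0.60, SE 0.10 with adjusted p = 0.00293), and the second probe set gave log2 -0.68 with adjusted p = 0.00158. Both calls held in every alternative. In Eed-/- Kdm1a stood at log2 -0.07, 95% interval -0.30 to 0.16 and in the arrays labelled Jarid2-/- at log2 -0.20, 95% interval -0.43 to 0.02. The differences of Ezh2-/- from Eed-/- (log2 -0.53 with adjusted p = 0.00769) and of the arrays labelled Jarid2-/- from Ezh2-/- (log2 0.40 with adjusted p = 0.03) were called. The first was lost without either Ezh2-/- array or Eed-/- replicate 2 (log2 -0.54 to -0.46), and the second without either Ezh2-/- array or Jarid2-/- replicate 2 (log2 0.30 to 0.41) and with no intensity trend or equal chromosome medians (log2 0.30 to 0.40).

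Kdm3a, an H3K9 demethylase on chromosome 6, read 4777 and 4802 in Ezh2-/-, 6335 and 5899.5 in Eed-/-, 3496 and 2713 on the arrays labelled Jarid2-/- and 5994 and 4898 in wild type. Both arrays labelled Jarid2-/- were below all the others. It was 1.76-fold lower there than in wild type (log2 -0.81, SE 0.13 with adjusted p = 0.00277) and 1.98-fold lower than in Eed-/- (log2 -0.99, SE 0.13 with adjusted p = 0.00113), and both calls held, at -0.59 and -0.62 with equal chromosome medians. Its difference from Ezh2-/- (log2 -0.63 with adjusted p = 0.0102) was lost without either Ezh2-/- array or Jarid2-/- replicate 2 (log2 -0.64 to -0.45) and with equal chromosome medians (log2 -0.47). Kdm3b, its paralog, also named after its values were seen, was not called against wild type (-0.19 to 0.22). It was called lower than in Eed-/- both in Ezh2-/- (log2 -0.40 with adjusted p = 0.0387) and in the arrays labelled Jarid2-/- (log2 -0.41 with adjusted p = 0.0396). Neither call held in every alternative. Kdm4c, which acts on H3K9 and was named after its values were seen, read 2134 and 2169 in Ezh2-/-, 1863 and 1739 in Eed-/-, 2285 and 2396 on the arrays labelled Jarid2-/- and 1762 and 1829 in wild type. It was higher in the arrays labelled Jarid2-/- (log2 0.38, SE 0.08 with adjusted p = 0.0127), which was lost without Jarid2-/- replicate 2 (log2 0.34) and with a fit of the 2 groups alone (log2 0.38), and in Ezh2-/- (log2 0.26 with adjusted p = 0.046), which was lost without any single array (log2 0.23 to 0.28) and with no intensity trend or a fit of the 2 groups alone (log2 0.26).

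The KDM5 enzymes remove methyl groups from H3K4. Kdm5b read 7087 and 6730.3 in Ezh2-/-, 7645 and 8109 in Eed-/-, 8569 and 8796 on the arrays labelled Jarid2-/- and 9108 and 10401 in wild type. Every mutant array was below both wild type arrays. Kdm5b was 1.41-fold lower in Ezh2-/- (log2 -0.49, SE 0.07 with adjusted p = 0.00115) and lower in Eed-/- (log2 -0.31 with adjusted p = 0.017). The Ezh2-/- call held without each array and was lost with the mean over its probe sets or equal chromosome medians (log2 -0.23 to -0.20). The Eed-/- call was lost without Eed-/- replicate 1 or wild type replicate 2 (log2 -0.26 to -0.21) and with no intensity trend, a fit of the 2 groups alone, the mean over its probe sets or equal chromosome medians (log2 -0.30 to -0.11). Its second probe set read 1217 and 1143 in Ezh2-/-, 1166 and 1056 in Eed-/-, 1059.7 and 1163 on the arrays labelled Jarid2-/- and 1061 and 1241 in wild type and was not called in any mutant. Kdm5a, on chromosome 6, read 1416 and 1273 in Ezh2-/-, 1350.2 and 1425 in Eed-/-, 1403 and 1321 on the arrays labelled Jarid2-/- and 1534 and 1278 in wild type, with -0.06 to -0.01 and no call.

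The X-linked Kdm5c read 458 and 485 in Ezh2-/-, 436 and 502 in Eed-/-, 459 and 421 on the arrays labelled Jarid2-/- and 474 and 506 in wild type and was not called, with log2 -0.05, 95% interval -0.30 to 0.19, log2 -0.06, 95% interval -0.31 to 0.18 and log2 -0.15, 95% interval -0.39 to 0.09 in the order Ezh2-/-, Eed-/- and the arrays labelled Jarid2-/-. A second Kdm5c probe set was not called against wild type either, at 0.25, 0.17 and -0.24 in the same order. At that probe set the arrays labelled Jarid2-/- were called lower than Ezh2-/- (log2 -0.50 with adjusted p = 0.0259). The Y-linked partner of Kdm5c, Kdm5d, read within the negative controls at all 3 probe sets on every array, the brightest at 81.0 to 106. The dimmest of these was called lower in Ezh2-/- (adjusted p = 0.00578), with 32.9 and 24.8 in Ezh2-/- against 57.8 and 58.0 in wild type, all at background, and the call was lost without Ezh2-/- replicate 2 (log2 -0.60).

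Kdm6a encodes UTX, an X-linked demethylase of the H3 lysine that PRC2 methylates. Its brightest probe set read 1126 and 1136 in Ezh2-/-, 1503 and 1448 in Eed-/-, 1250.4 and 1253 on the arrays labelled Jarid2-/- and 1493 and 1307 in wild type, and the second 955 and 954 in Ezh2-/-, 1245 and 1358 in Eed-/-, 1059.6 and 1092 on the arrays labelled Jarid2-/- and 1375 and 1234 in wild type. Both were lowest in Ezh2-/- and were called there (log2 -0.30 with adjusted p = 0.0456 and log2 -0.44 with adjusted p = 0.0103). The first call was lost without either Ezh2-/- array, either Eed-/- array, either Jarid2-/- array or wild type replicate 1 (log2 -0.31 to -0.21) and with quantile normalization, equal array medians, a fit of the 2 groups alone or equal chromosome medians (log2 -0.30 to -0.02). The second was lost without either Ezh2-/- array (log2 -0.44) and with equal chromosome medians (log2 -0.16). The X chromosome median was -0.173 in Ezh2-/-. In Eed-/- the bright Kdm6a probe set stood at log2 0.08, 95% interval -0.14 to 0.29 and in the arrays labelled Jarid2-/- at log2 -0.16, 95% interval -0.37 to 0.06. The bright probe set was called lower in Ezh2-/- than in Eed-/- (log2 -0.38 with adjusted p = 0.0264), which did not hold in every alternative. The paralog Kdm6b was not analysed here. Kdm7a, a demethylase of H3K9 and of the PRC2 mark, was called lower in all 3 mutants, as 4.49% of all genes were, but read 60.3 and 63.8 in Ezh2-/-, 54.5 and 59.1 in Eed-/-, 59.7 and 40.6 on the arrays labelled Jarid2-/- and 91.6 and 107 in wild type, within the range of the negative controls, so no fold is given (adjusted p = 0.0254, 0.0187 and 0.00671 in the order Ezh2-/-, Eed-/- and the arrays labelled Jarid2-/-). Kdm4b, an H3K9 demethylase, and Kdm8 stood at -0.19 to 0.22 and were not called.

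Between mutants, 13 enzyme genes differed between Ezh2-/- and Eed-/- (5 higher and 8 lower in Ezh2-/-, where 18.1% of all genes were called, 5.87% higher and 12.2% lower), 11 between the arrays labelled Jarid2-/- and Eed-/- (6 higher and 5 lower in the arrays labelled Jarid2-/-, against 15.7%, with 5.08% higher and 10.6% lower) and 12 between the arrays labelled Jarid2-/- and Ezh2-/- (6 higher and 6 lower in the arrays labelled Jarid2-/-, against 16%, with 8.38% higher and 7.64% lower). Over probe sets the first pair differed at 19 of 88 (8 higher and 11 lower in Ezh2-/-; 16.8% of all, 5.68% higher and 11.1% lower). The second differed at 15 (9 higher and 6 lower in the arrays labelled Jarid2-/-, against 14.9%, with 4.99% higher and 9.9% lower), and the last at 18 (10 higher and 8 lower in the arrays labelled Jarid2-/-, against 15%, with 7.77% higher and 7.28% lower). Among differences of 2-fold or more the one brightest probe set called was that of Kmt2e, higher in the arrays labelled Jarid2-/- than in Ezh2-/-. The calls that held in every alternative were those of Kat6b and Kdm3a given above, of Kmt2e and of Smyd5. The 19 probe sets fell to 2 without Ezh2-/- replicate 1, to 1 without Ezh2-/- replicate 2, to 2 without Eed-/- replicate 2 and to 8 without Eed-/- replicate 1. All probe sets called in that comparison fell from 16.8% to 7.03%, 6.07%, 7.21% and 12.2% in these fits. The 15 fell to 4 without Eed-/- replicate 2, to 5 without Jarid2-/- replicate 2, to 6 without Eed-/- replicate 1 and to 10 without either Ezh2-/- array or without Jarid2-/- replicate 1, where all probe sets fell from 14.9% to 6.01%, 9.79%, 10.8%, 10.4% and 10.2%. The 18 fell to 6 without Ezh2-/- replicate 1, to 7 without Ezh2-/- replicate 2 and to 6 without Jarid2-/- replicate 2, where all probe sets fell from 15% to 5.38%, 4.97% and 6.82%.

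The subunits that carry these enzymes were read from a list of 76 partner and related enzyme genes, of which 59 were measured. In Ezh2-/- 9 were higher and 16 lower, in Eed-/- 2 higher and 7 lower, and in the arrays labelled Jarid2-/- 2 higher and 6 lower, which is 42.4%, 15.3% and 13.6% of them against 27.6%, 18.9% and 20.2% of all genes, with medians of -0.07, -0.05 and -0.06 against -0.08, -0.06 and -0.08 over all genes. Sin3b, a scaffold of the HDAC1 and HDAC2 complex on chromosome 8, read 3512 and 3189 in Ezh2-/-, 4119 and 4325 in Eed-/-, 4425 and 4635 on the arrays labelled Jarid2-/- and 6059.7 and 6127 in wild type and was lower in all 3 mutants (-0.86, -0.53 and -0.43). Ash2l, a core subunit of the KMT2 complexes on the same chromosome, was lower in all 3 as well (-0.27, -0.33 and -0.45). The median of chromosome 8 was -0.306, -0.341 and -0.3 in the same order, so Ash2l lay near it in Ezh2-/- and Eed-/-. Crebbp, the acetyltransferase CBP, which acetylates the lysine that PRC2 methylates, read 787 and 759.6 in Ezh2-/-, 818 and 731 in Eed-/-, 639.5 and 632 on the arrays labelled Jarid2-/- and 553 and 503 in wild type and was called higher in Ezh2-/- (log2 0.54 with adjusted p = 0.00512) and in Eed-/- (log2 0.54 with adjusted p = 0.00843). Mbd2, a methyl-CpG binding subunit of NuRD, read 1399.9 and 1396 in Ezh2-/-, 896 and 1127 in Eed-/-, 658 and 593 on the arrays labelled Jarid2-/- and 759 and 572 in wild type, higher in Ezh2-/- (log2 1.07 with adjusted p = 0.00135) and in Eed-/- (log2 0.60 with adjusted p = 0.028). Msl3, X-linked and part of an H4 acetyltransferase complex, read 282 and 257 in Ezh2-/-, 415 and 477 in Eed-/-, 225 and 223 on the arrays labelled Jarid2-/- and 475 and 453 in wild type, lower in Ezh2-/- (log2 -0.75 with adjusted p = 0.0011) and, 2-fold, in the arrays labelled Jarid2-/- (adjusted p = 0.000394). Uty, the Y-linked relative of Kdm6a, read 7.64 and 11.5 in Ezh2-/-, 402 and 429 in Eed-/-, 151 and 106 on the arrays labelled Jarid2-/- and 464 and 345 in wild type. In Ezh2-/- it lay below every negative control, and in the arrays labelled Jarid2-/- 1 array was above and 1 below the highest. Set against that highest control it was at least 2.57-fold lower in each (adjusted p = 1.51e-06 and 0.000694). These 6 genes were named after their values were seen, and their values were not recomputed under the alternatives.

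Part of the lower calls lay on chromosomes that were lower as a whole. Over 339 genes of chromosome 8 with a mean signal above 500, Ezh2-/- had a median of -0.306, Eed-/- one of -0.341 and the arrays labelled Jarid2-/- one of -0.3, and 50.7%, 56% and 46.9% of them were called lower. Prmt7, Setd6 and Kat6a lie there. Less the chromosome median, Prmt7 stood at -0.566, -0.457 and 0.023 in the 3 mutants, and Setd6 at -0.379, -0.164 and 0.042. Chromosome 1 (medians -0.222, -0.167 and -0.232) holds Kdm5b and Smyd2, chromosome 19 (-0.196, -0.175 and -0.193) Kmt5b, and chromosome 11 (-0.143, -0.134 and -0.072) Hdac5, Kat2a, Kat7 and Sirt7. On chromosome 6, which carries Ezh2, Ezh2-/- had a median of 0.038, Eed-/- one of 0.075 and the arrays labelled Jarid2-/- one of -0.124, where 34.6% of 272 genes were lower. Of the 6 members there, Kdm3a, Smyd5 and Kdm7a were called lower in the arrays labelled Jarid2-/-, and Hdac11, Kdm5a and Smyd1 were not. Less the chromosome median Kdm3a stood at -0.688 and Smyd5 at -0.409. The quartiles of chromosome 6 there were -0.479 and 0.086, so its genes were not shifted evenly and the median is only a partial correction. Of its genes 5.5% lay below Kdm3a and 21.3% below Smyd5. When each chromosome was scaled to an equal median, an alternative chosen after seeing the data, 10 member probe sets were lower in Ezh2-/- in place of 19. Making only the array medians equal already gave 11, so this count does not separate chromosomes from the scaling of whole arrays. The part of whole-chromosome differences in these calls was not tested further.

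**Figure D5:**
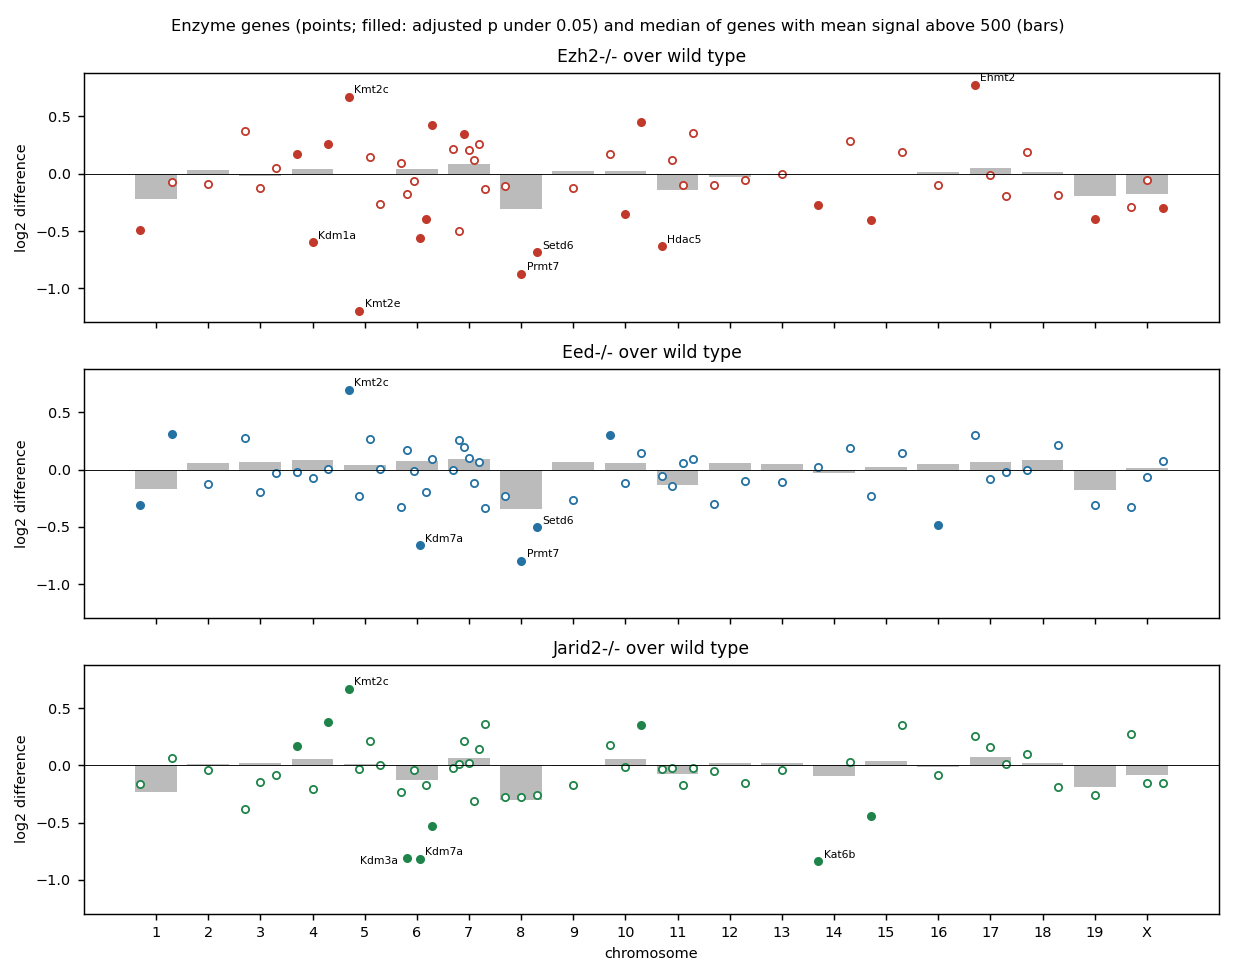
Log2 difference from wild type of each enzyme gene (points; filled where the adjusted p was under 0.05) by chromosome, over the median of all genes of that chromosome with a mean signal above 500 (grey bars), for Ezh2-/-, Eed-/- and Jarid2-/-. Chromosome 8 has the lowest bar in each panel (-0.306, -0.341 and -0.3), with Prmt7 and Setd6 below it in Ezh2-/- and Eed-/-, while Kmt2c, Kmt2e and Kdm1a lie on chromosomes with bars near 0.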

How the data were processed

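Messenger RNA was measured on 8 Affymetrix Mouse430A_2 arrays, 2 each of Ezh2-/-, Eed-/-, Jarid2-/- and wild type, grouped by the genotype in the labels. The values are deposited signal intensities on a linear scale, with a normalization that the sources used here do not name. A second deposited table, of dChip signal, has 12 columns that match no sample label, and it was not used. The 64 control probe sets were left out. Signals were floored at 1 and taken as log2 after adding 16, without further normalization or filter. Of 22626 probe sets 20380 had 1 platform symbol, 691 several and 1555 none. A gene stands by its brightest probe set.

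The fit used limma 3.58.1 (R 4.3.3; lmFit, eBayes with trend) and 1 mean for each of the 4 genotypes, with 4 residual and 5.02 prior degrees of freedom. The p-values are two-sided with Benjamini-Hochberg adjustment over all 22626 probe sets in each of 6 comparisons. The method was tested on simulated data. The members, lists and tests were chosen with earlier results of these data known. Genes named with values were those called at 1.5-fold or more with both arrays outside the wild type range and above the controls, those on chromosomes X, Y and 6, paralog pairs, the 2 brightest of each class, those 2-fold apart between mutants and the targeted genes. Other genes named with values of single arrays or with calls are marked in the text, and the rest are given by their range. Fibroblast, embryonic stem cell, keratin and trophectoderm, and endoderm markers were read as lists. The alternatives were 9 processing settings, 1 added after seeing the data (equal chromosome medians) and leaving out each array. Chromosomes and promoters are from RefSeq (GRCm38.p6). The number of arrays limits the precision.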

Additional observations from a re-analysis of the deposited data

How the results depend on the processing

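Of 37 calls against wild type at brightest probe sets, 11 held under every alternative that tested them, and of 36 calls between mutants 5 did. The 11 include Kdm7a in the arrays labelled Jarid2-/-, which reads within the negative controls and was left out by the filter on dim probe sets. Of 128 values against wild type not called, 37 were called under at least 1 alternative. Leaving out 1 array gave 3 to 12 probe sets higher and 7 to 18 lower in Ezh2-/-, 1 to 4 and 2 to 10 in Eed-/-, and 4 to 7 and 4 to 11 in the arrays labelled Jarid2-/-. It gave 1 to 23 differing between Ezh2-/- and Eed-/-, 4 to 16 between the arrays labelled Jarid2-/- and Eed-/-, and 6 to 22 between those and Ezh2-/-. In Ezh2-/- the 19 lower were 12 after quantile normalization, 11 with equal array medians (14 higher) and 10 with equal chromosome medians. In these settings 25%, 25.3% and 24% of all probe sets were called, against 26.6% in the main fit. A fit of the 2 groups alone gave 1 higher and 4 lower in Eed-/-, and 2 and 3 in the arrays labelled Jarid2-/-. All probe sets called fell as well, to 10.9% and 11.2%, from 18.6% and 19.8% in the main fit. Without the intensity trend 12 differed between Ezh2-/- and Eed-/-, where 15% of all probe sets did, against 16.8% in the main fit. One value per gene, with 55 tested in place of 88, gave 11 lower in Ezh2-/-, 4 lower in Eed-/- and 10 between the arrays labelled Jarid2-/- and Ezh2-/-. The offsets of 1 and 64 and the filter on dim probe sets kept each count within 1.5 times. Prmt3 reversed between the arrays labelled Jarid2-/- and Eed-/-, from -0.08 to 0.755 when its probe sets, which disagree, were averaged. Replicate deviations correlated by 0.411 between the arrays labelled Jarid2-/- and wild type. They correlated by 0.244 between the arrays labelled Jarid2-/- and Eed-/-, and by 0.008 to 0.05 otherwise. The labels do not say that a replicate number marks a shared culture or day, so the main fit took no pairs. Whether groups shared a replicate effect was not tested. With the replicate block 12 were higher and 22 lower in Ezh2-/-, 6 higher in Eed-/- and 11 lower in the arrays labelled Jarid2-/-. Of all probe sets 31%, 23.3% and 24.3% were called with the block, against 26.6%, 18.6% and 19.8% in the main fit. Causes of these shifts were not tested. Signals near the negative controls limit what Kdm7a, Kdm5d, Hdac9 and Nsd1 can show.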
